A study of Mus musculus with 4 samples.

Results

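The lysosomal genes described here were 30 genes fixed by name: 20 hydrolases and other proteins of the lysosomal lumen, 4 lysosomal membrane proteins and 6 subunits or partners of the vacuolar ATPase (V-ATPase), with cysteine cathepsins left out. Every probe set that the platform annotation gives to 1 of these genes, and that had values, was taken. Of the 30 genes, 28 had values, on 38 of the 10649 probe sets with values in all, and 2 genes (Manba and Atp6v0c) were not analysed here. After a filter on low signals, 26 genes on 34 probe sets were tested. The genes that missed it were Idua, which encodes an enzyme of glycosaminoglycan breakdown, and Ppt1, which encodes a thioesterase that removes fatty acids from proteins.

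The cells were peritoneal macrophages of mice whose mixed background came from 129/SV and C57BL/6, either wild type for Pparg (PPARg WT) or knocked out for it (PPARg KO), with 2 Affymetrix arrays of each genotype. Pparg encodes PPARγ, a nuclear receptor that binds lipids. Both genotypes had received 2.5 ml of 3% thioglycollate, which recruits monocyte-derived cells, were lavaged after 3 days, and were then cultured for 24 h in 0.5% serum with no ligand. The age of the mice, the allele deleted, any Cre driver and whether same-genotype arrays stand for separate mice are not given in the sources used here. The p-values therefore rest on array-to-array spread that may be technical.

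Lysosomes degrade material that a cell takes up or recycles, and macrophages are rich in them. Soluble hydrolases cut sugars, lipids, proteins and phosphate esters. Heavily glycosylated membrane proteins such as LAMP1 and LAMP2 line the inside of the limiting membrane, and the V-ATPase, a rotary proton pump with a membrane sector (V0) and a cytosolic catalytic sector (V1), acidifies the lumen. The transcription factor TFEB and its relatives bind an E-box with the core CACGTG in the promoters of many lysosomal genes.

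Signals were on a linear scale, with array medians from 137 to 142, and the deposited values carried no unit or scaling note. In every probe set with values, the coefficient of variation of the 2 arrays of a genotype was under 0.2, with highest values of 0.1997 in WT and 0.1999 in KO. Between 0.18 and 0.2 there were 232 probe sets in WT and 336 in KO, and above 0.2 there were 0 in each. A limit on the spread between arrays is thus built into the table, 1780 rows of which were blank on all arrays, and standard errors and p-values from it can be too small. Pparg itself was read by 1 probe set, at 61.1 and 73.1 in WT and 43.0 and 40.6 in KO, all below the median of the antisense control probe sets of their array. Both KO arrays lay below both WT arrays. In a fit without the filter on low signals, the log2 fold change (KO minus WT) was -0.52, with limma adjusted p = 0.00012. Since the deleted segment is not described, that probe set may not report the deletion. In RNA from whole cultures, fewer cells of a type and less RNA per cell cannot be told apart.

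The comparison of KO with WT asked whether lysosomal transcripts differ when PPARγ is missing. Most of them did not pass the test in either direction. Of the 26 genes tested, 0 rose, 1 fell (Gla) and 25 did not pass an adjusted p of 0.05 in limma with Benjamini-Hochberg adjustment over all tested probe sets. Over all 5002 genes tested, 3.72% were called, 1.06% higher and 2.66% lower in KO, so the count of 1 in 26 (3.85%) lay near the background. At an unadjusted p under 0.05 there were 0 higher and 2 lower lysosomal genes (Gla and Acp5), where 9.46% of all genes lay under that p.

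The differences were small in all 3 classes. The log2 fold change, taken as KO minus WT of log2(signal + 16), had a median of 0.03 over the 26 genes. The median was -0.02 over all genes tested and 0.005 over the 501 tested genes with the brightest signals. The log2 fold change of the lysosomal genes ran from -0.36 for Gla to 0.27 for Gusb. It was below 0.25 in size for 22 of the 26. The class medians were 0.03 for 17 hydrolases and luminal proteins, -0.02 for 4 membrane proteins and 0.10 for 5 V-ATPase genes. In this fit a lysosomal gene needed a difference of 0.35 to 0.50 on this scale (1.28-fold to 1.42-fold), depending on its signal, to be called. The 95% interval lay within 1.5-fold in both directions for 25 of the 26 genes, the exception being Acp5. The lower end for Gla (-0.58) and the upper end for Gusb (0.58) lay close to that limit. Since the standard errors can be too small, the intervals can be too narrow.

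**Figure D1:**
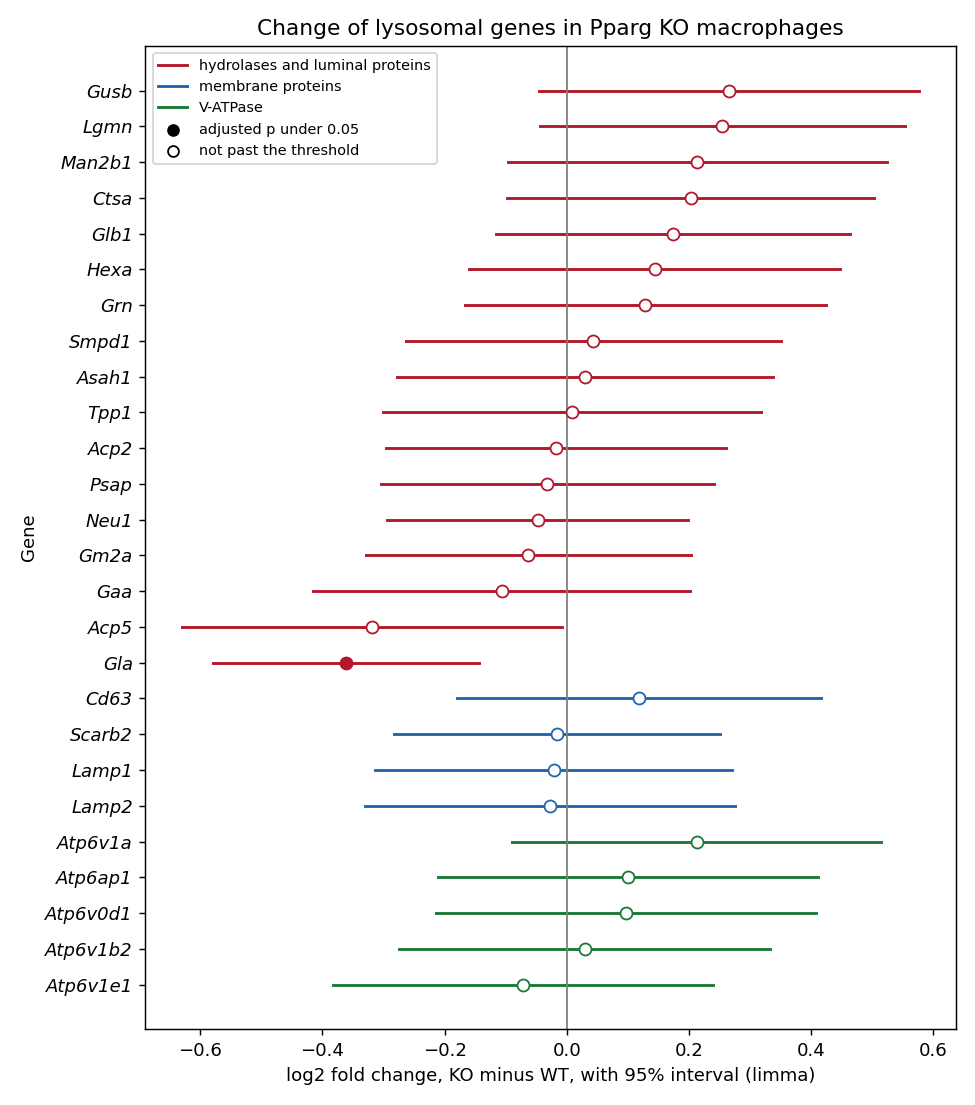
Log2 fold change (KO minus WT, horizontal axis) of each of the 26 tested lysosomal genes with its 95% interval from limma, coloured by class; filled points passed an adjusted p of 0.05. Gla is the filled point at -0.36, and the intervals of 24 genes cross 0.

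More lysosomal genes lay above than below WT, without passing the test. In 7 of the 26 genes (26.9%) both KO arrays exceeded both WT arrays, and in 2 (7.69%) both lay below, against 11.3% and 20.9% of all genes. Together these are 34.6% of the lysosomal genes, near the 32.2% of all genes whose arrays did not overlap. The 7 genes were Glb1, Gusb, Man2b1, Ctsa, Lgmn, Cd63 and Atp6v1a, and the other pair was Gla and Acp5. Among the 501 tested genes with the brightest signals, 13.4% lay above and 18.2% below. By means alone, 15 of the 26 lysosomal genes (57.7%) were higher in KO, against 42.3% of all genes and 51.3% of those 501.

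**Figure D2:**
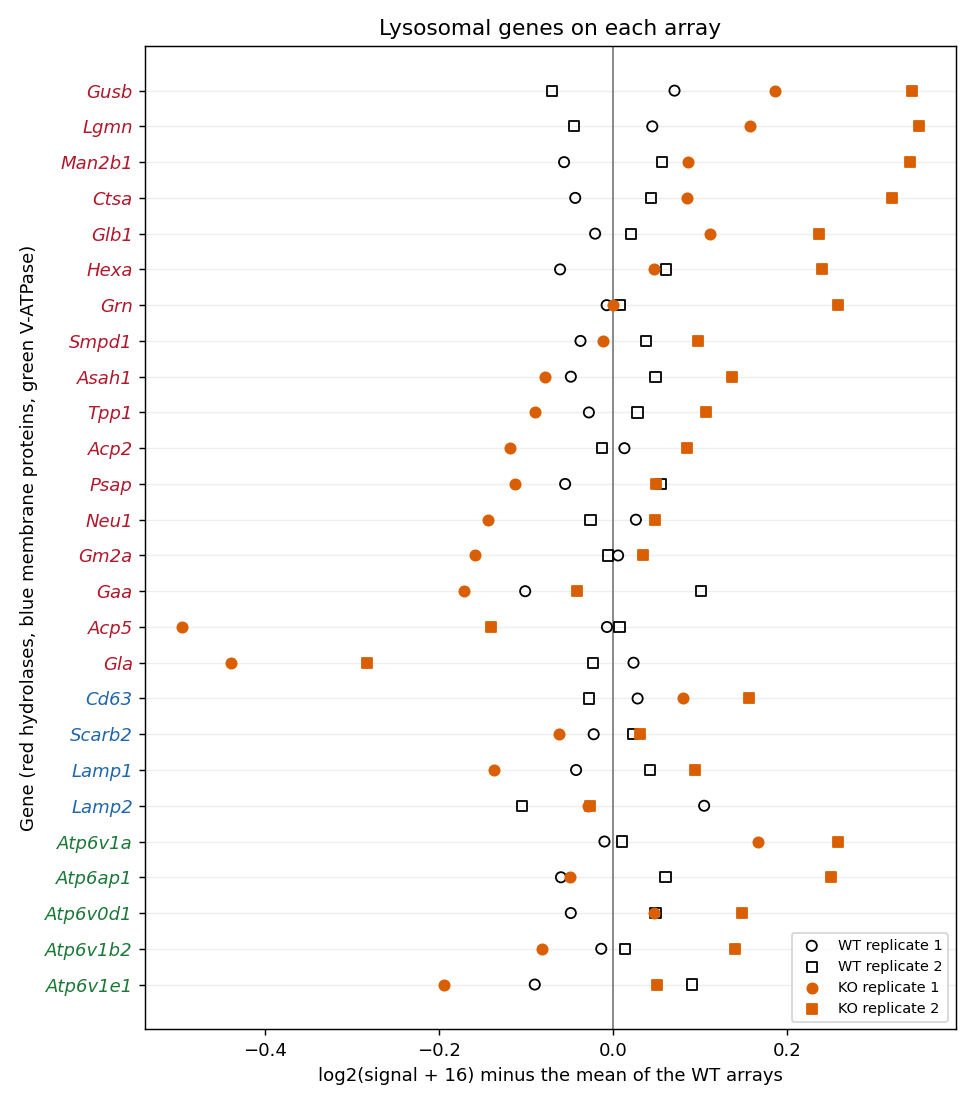
Signal of each of the 26 tested lysosomal genes on each array, as log2(signal + 16) minus the mean of the WT arrays; open symbols are WT, filled symbols KO, circles replicate 1 and squares replicate 2. KO replicate 2 lies to the right of KO replicate 1 for all 26 genes, and only Gla and Acp5 have both KO arrays to the left of both WT arrays.

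Glycosidases, which trim sugars from glycolipids and glycoproteins, held the largest differences in both directions. Gla encodes α-galactosidase A, which removes terminal galactose from globotriaosylceramide and is deficient in Fabry disease. Its WT signals were 213.0 and 205.7, and its KO signals were 150.1 and 169.1. Both KO arrays were below both WT arrays, and the groups did not overlap. Gla fell 1.29-fold (209 ± 5.16 to 160 ± 13.4, SD, n = 2 each; log2 fold change -0.36, SE 0.11, limma adjusted p = 0.0339). Its signal was dim: the KO replicate 1 value equalled the highest antisense control of that array, 150.1.

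The call for Gla held under 9 of 16 alternatives, and its log2 fold change was below 0 under all 16, from -0.44 to -0.28. Many of the 16 could not alter that sign. The filters, variance settings and replicate block leave the log2 fold change unchanged, and leaving out 1 array cannot turn it without overlap between genotypes. Without WT replicate 1 its adjusted p was 0.909, without WT replicate 2 it was 0.66 and without KO replicate 1 it was 0.21, with log2 fold changes of -0.34, -0.39 and -0.28. Leaving out KO replicate 2 gave -0.44 and adjusted p = 0.00635. In each of these fits 1 genotype had a single array, assumed to vary like the other genotype's pair, from which alone the spread came. Median centring (log2 fold change -0.34, adjusted p = 0.0885), cyclic loess normalization (-0.34, 0.0512), no filter (-0.36, 0.0681) and no variance moderation (-0.36, 0.812) moved the difference little or not at all and also ended the call. Adjusted p ran from 0.00168 to 0.909 over the alternatives.

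Of the other glycosidases none passed. Gusb encodes β-glucuronidase, a widely used lysosomal marker enzyme. It read 1732.4 and 1569.5 in WT and 1878.4 and 2097.2 in KO, so both KO arrays lay above WT (log2 fold change 0.27, SE 0.16, limma adjusted p = 0.741). Man2b1, lysosomal α-mannosidase, read 1832.9 and 1983.5 in WT and 2024.9 and 2419.3 in KO, a difference of 0.21. Both KO arrays were higher, but KO replicate 1 exceeded WT replicate 2 only slightly. Glb1, β-galactosidase, had WT and KO means of 584 and 662 (0.17), and its second probe set gave 0.06. Hexa, the α subunit of β-hexosaminidase, read 2773 and 3069 (0.14) with overlapping arrays. Gaa, the acid α-glucosidase lost in Pompe disease, read 1225 and 1135 (-0.11), and the sialidase gene Neu1 read 310 and 300.2 (-0.05). Their intervals all included 0.

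The 4 genes grouped as sphingolipid enzymes or activators were nearly level. Glycosidases that act on glycolipids, Gla among them, are not part of this group. Psap encodes prosaposin, the precursor of the saposins that present lipids to hydrolases. Its brightest probe set read 7475.5 and 8072.3 in WT and 7182.8 and 8040.7 in KO, a difference of -0.03 with a 95% interval from -0.30 to 0.24. The arrays of the genotypes interleaved. Its other probe sets gave -0.01 and -0.23, the latter at adjusted p = 0.762. Gm2a, the GM2 activator, differed by -0.06, Asah1, acid ceramidase, by 0.03 and Smpd1, acid sphingomyelinase, by 0.04. All 4 genes overlapped between genotypes.

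Among proteases and related proteins, Lgmn and Ctsa were higher on both KO arrays without passing. Lgmn encodes legumain, which cuts after asparagine and activates other lysosomal proteases. It read 730.2 and 685.1 in WT and 790.8 and 906.8 in KO (log2 fold change 0.25, SE 0.15, limma adjusted p = 0.741). Ctsa encodes cathepsin A, a serine carboxypeptidase that also protects β-galactosidase and sialidase. It read 3045.8 and 3236.9 in WT and 3331.4 and 3926.1 in KO, a difference of 0.20 with an interval from -0.10 to 0.50. Both genes had no overlap between genotypes. Tpp1, tripeptidyl peptidase 1, read 2069 and 2086 and differed by 0.01. Grn, the precursor of granulins, read 3907 and 4291 (0.13), and its dimmer probe set differed in sign (-0.01).

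The phosphatase Acp5 had the second largest lower value. Acp5 encodes tartrate-resistant acid phosphatase, a marker of osteoclasts and of some macrophages. Its WT signals were 1644.6 and 1661.2, and its KO signals were 1167.6 and 1497.9. The WT arrays were nearly equal, while KO replicate 1 was far lower than KO replicate 2. The log2 fold change was -0.32 (SE 0.16, 95% interval -0.63 to -0.01), with limma adjusted p = 0.499. Leaving out KO replicate 2 gave -0.50 and adjusted p = 0.00824, and leaving out KO replicate 1 gave -0.14. After quantile normalization adjusted p was 0.0276, after cyclic loess it was 0.009, and with the replicate number as a block it was 0.0406. Acp2, lysosomal acid phosphatase, read 498 in WT and 493 in KO.

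Of the genes below the filter, Idua read 122.3 and 111.9 in WT and 104.1 and 105.7 in KO (-0.14 in the fit without a filter, adjusted p = 0.852), and 3 of its 4 signals were below the antisense control median. Ppt1 read 84.7 in WT and 82.6 in KO and was below that median on all 4 arrays. The dim second probe sets of Gaa and Hexa also lay below it throughout. In the fit without a filter none of these probe sets passed, with limma adjusted p from 0.852 for Idua to 0.9994 for Hexa and Ppt1. That does not show that there was no difference.

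The membrane proteins differed least. Of the 4 tested, 0 rose, 0 fell and 0 had an unadjusted p under 0.05 in limma. Lamp1 read 4447.0 and 4719.0 in WT and 4163.3 and 4891.8 in KO, a difference of -0.02 with an interval from -0.31 to 0.27. The KO arrays lay on either side of the WT arrays. Lamp2 gave -0.03 and -0.01 on its probe sets, with the KO arrays at 859.7 and 860.9 between WT arrays of 944.6 and 814.9. Scarb2, also called LIMP-2, which carries β-glucocerebrosidase to lysosomes, read 418 and 413. Cd63, a tetraspanin of late endosomes and lysosomes, read 3710.2 and 3567.9 in WT and 3847.3 and 4055.4 in KO. Its KO arrays were higher than both WT arrays, with a log2 fold change of 0.12 (SE 0.15, limma adjusted p = 0.9997). The values of Scarb2 and of Lamp1 and Lamp2 were small enough to change sign with the scaling.

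The V-ATPase genes had 0 called among 5, at an unadjusted p under 0.05 also 0, and 4 of 5 had higher means in KO. Means were higher in KO for 42.3% of all genes and for 51.3% of the 501 brightest. Atp6v1a encodes the catalytic A subunit of V1, which hydrolyses ATP. Its brightest probe set read 2952.4 and 2994.1 in WT and 3339.3 and 3560.6 in KO. Both KO arrays exceeded both WT arrays there, with a log2 fold change of 0.21 (SE 0.15, 95% interval -0.09 to 0.51, limma adjusted p = 0.905). Its other probe sets gave 0.14 and 0.13. After quantile normalization Atp6v1a was called (log2 fold change 0.22, adjusted p = 0.0185). It was the 1 V-ATPase gene called under any alternative tried.

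The remaining subunits overlapped between genotypes. Atp6v1b2, the B2 subunit that forms the V1 head with the A subunit, read 2947 and 3016 (0.03). Atp6v1e1, a stalk subunit, read 1482 and 1411 (-0.07). Atp6v0d1, which joins V0 to the central stalk, read 1375 and 1472 (0.10), and the accessory protein gene Atp6ap1 read 1305 and 1407 (0.10). Each of these differences was smaller than its standard error.

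The 2 KO arrays differed from each other across lysosomal genes in 1 direction. KO replicate 2 exceeded KO replicate 1 for 26 of 26 genes, with a median of 0.19 on the log2 scale, while WT replicate 2 exceeded WT replicate 1 for 18 of 26 with a median of 0.04. Over all tested probe sets the KO arrays differed by a median of 0.11, and among the 639 brightest, with a mean signal of at least 921, by 0.21, with replicate 2 higher in 96.9%. Lysosomal genes were bright: 18 of 26 lay among those 639. The 9 bacterial hybridisation control probe sets were also higher on replicate 2, by a median of 0.29 in KO and 0.19 in WT.

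Set against the WT mean, the median of the lysosomal genes had different signs on the 2 KO arrays. KO replicate 1 was above the WT mean for 9 of 26 genes (median -0.06), and KO replicate 2 for 22 of 26 (median 0.12). Over all 6389 tested probe sets these counts were 2167 (median -0.06) and 3357 (median 0.009). Among the 639 brightest they were 152 (median -0.10) and 463 (median 0.10), so the medians of bright probe sets also had different signs. Both KO arrays were above the WT mean for 9 lysosomal genes and below it for 4, and for the other 13 they lay on either side. The same counts were 1236, 2101 and 3052 over all tested probe sets and 146, 170 and 323 among the 639 brightest. Quantile normalization, which gives all arrays 1 distribution, called 6 lysosomal genes, 4 higher (Gusb, Lgmn, Man2b1 and Atp6v1a) and 2 lower (Gla and Acp5), where 6.56% of all genes were called. Cyclic loess normalization called 3, Gusb and Lgmn higher and Acp5 lower, where 6.2% were called. A fit with the replicate number as a block called 2, Gla and Acp5, both lower, where 7.5% were called. The direction of 12 of the 26 genes was the same under all 16 alternatives, 9 higher and 3 lower in KO. The 9 were the 7 genes with all KO arrays above WT, Hexa and Atp6v0d1. Many of the 16 could not alter a direction. The filters, variance settings and replicate block leave the log2 fold change unchanged. Leaving out 1 array cannot turn it where the arrays of the genotypes do not overlap.

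**Figure D3:**
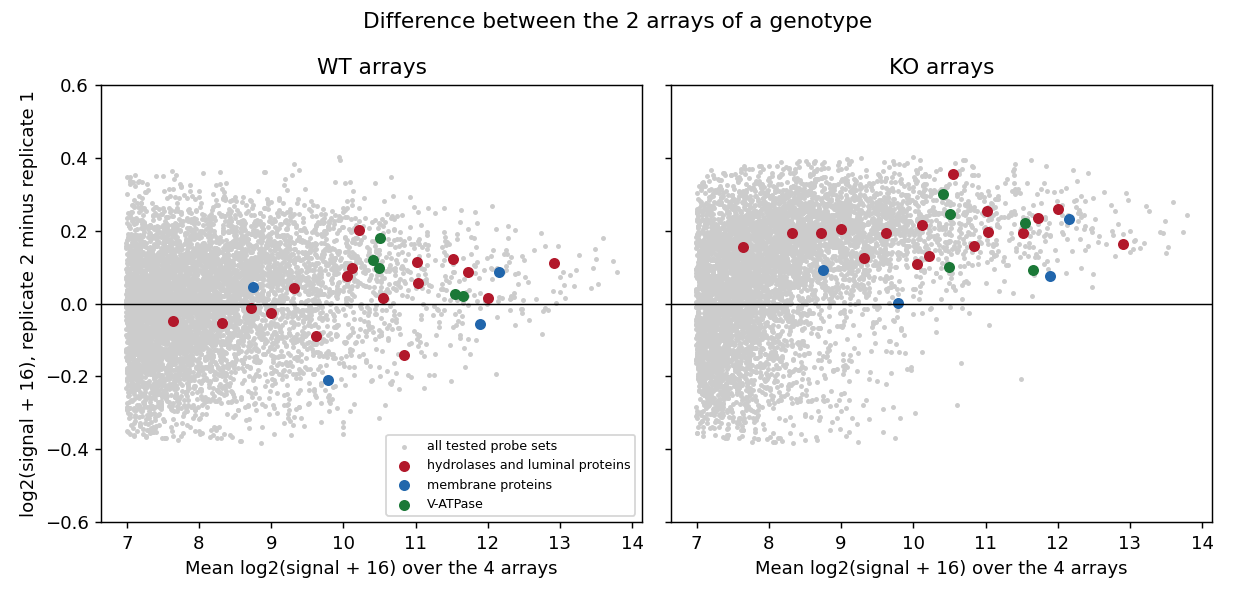
Difference between the 2 arrays of a genotype (log2, replicate 2 minus replicate 1, vertical axis) against mean signal (log2, horizontal axis), for WT on the left and KO on the right; grey points are all 6389 tested probe sets and coloured points the 26 lysosomal genes. In KO all 26 coloured points lie above 0, with a median of 0.19; the grey points end abruptly above and below, where the coefficient of variation reaches 0.2.

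**Figure D4:**
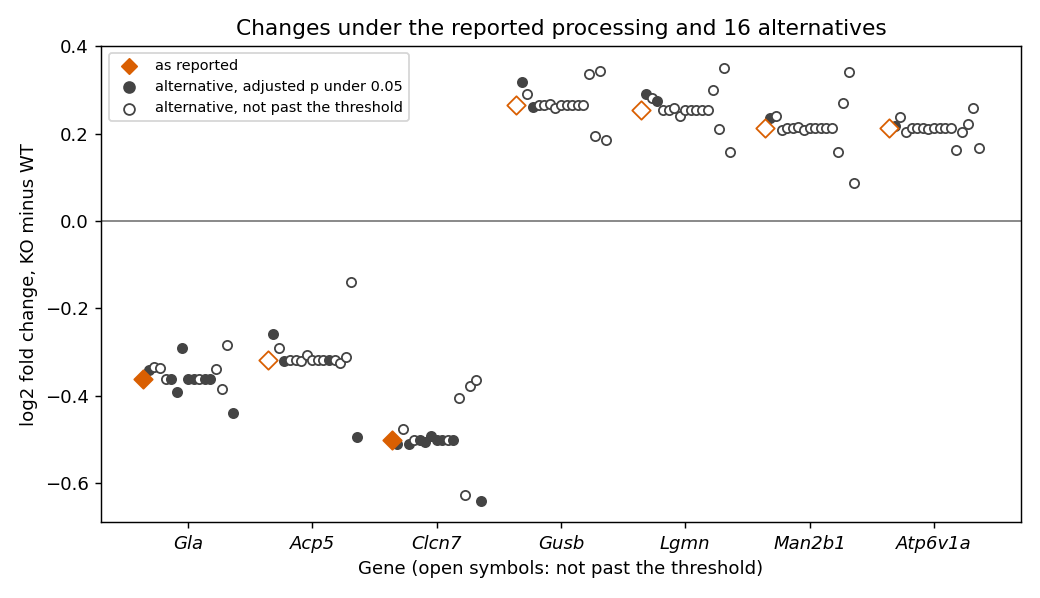
Log2 fold change (vertical axis) of 7 genes as reported (diamonds) and under 16 alternatives (circles); filled symbols passed an adjusted p of 0.05. Gla ranges from -0.44 to -0.28 and Gusb from 0.19 to 0.34, and no gene shown changes sign. The filters, variance settings and replicate block leave the log2 fold change as reported.

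RefSeq promoter windows (GRCm38.p6) were found for 28 of the 30 genes, 35 windows in all, and the 250 bases before each start were searched on both strands for the E-box CACGTG and for its longer form TCACGTGA, each of which reads the same on both strands. CACGTG, which includes the longer form, was present in 7 of the 35 windows (20%) and in 6.02% of all 32851 promoter windows. TCACGTGA was present in 3 windows (8.57%) and in 0.785% of all. Shown are the 3 windows with TCACGTGA, since 1 of them belongs to the gene that fell, and that of Lamp1, which holds 4 copies of CACGTG; capitals mark the matches.
Gla promoter, chrX:134601006-134601255, minus strand: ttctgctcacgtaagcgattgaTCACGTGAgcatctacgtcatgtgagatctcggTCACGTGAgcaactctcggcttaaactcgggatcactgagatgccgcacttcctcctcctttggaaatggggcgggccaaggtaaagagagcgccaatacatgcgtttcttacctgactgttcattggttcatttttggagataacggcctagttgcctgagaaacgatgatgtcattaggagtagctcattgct
Ctsa promoter, chr2:164833523-164833772, plus strand: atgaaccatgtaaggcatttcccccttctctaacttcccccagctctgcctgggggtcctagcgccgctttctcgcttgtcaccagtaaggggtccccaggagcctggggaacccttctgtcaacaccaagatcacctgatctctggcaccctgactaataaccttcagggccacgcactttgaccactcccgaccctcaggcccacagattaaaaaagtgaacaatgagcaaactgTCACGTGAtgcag
Atp6v1a promoter, chr16:44139260-44139509, minus strand: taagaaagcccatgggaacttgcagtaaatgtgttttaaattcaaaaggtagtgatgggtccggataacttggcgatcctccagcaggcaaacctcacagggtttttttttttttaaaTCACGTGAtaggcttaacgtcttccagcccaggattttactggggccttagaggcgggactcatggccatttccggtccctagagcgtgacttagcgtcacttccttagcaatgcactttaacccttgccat
Lamp1 promoter, chr8:13158911-13159160, plus strand: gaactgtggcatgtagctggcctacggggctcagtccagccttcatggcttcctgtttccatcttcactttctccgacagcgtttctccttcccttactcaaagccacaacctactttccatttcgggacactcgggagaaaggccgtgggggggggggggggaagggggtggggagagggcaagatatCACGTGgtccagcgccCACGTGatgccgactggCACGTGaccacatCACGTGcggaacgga
The Gla window holds 2 copies of TCACGTGA, starting the CACGTG core 227 and 194 bases before the annotated start. The single copy begins its core 12 bases before the start in Ctsa and 131 bases before it in Atp6v1a. Values of these 4 genes did not go 1 way: Gla fell, Ctsa (0.20) and Atp6v1a (0.21) were higher on both KO arrays without passing, and Lamp1 (-0.02) overlapped. The other genes with CACGTG were Gaa (-0.11), Glb1 (0.17) and Lgmn (0.25). A match is a description of these letters, and binding was not measured.

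Other lysosomal genes were taken from a list of 65 symbols covering further hydrolases, membrane and sorting proteins, V-ATPase subunits and TFEB relatives. Of these, 36 had values and 32 were tested: 0 rose, 1 fell and 31 did not pass, with a median of 0.05. The share called was 3.12%, near the 3.72% of all genes. At an unadjusted p under 0.05 in limma, 1 was higher and 2 lower, where 9.46% of all genes lay under that p. The gene that fell was Clcn7, which encodes the chloride-proton exchanger of the lysosomal membrane. Its brightest probe set read 2690.0 and 3201.5 in WT and 1876.7 and 2276.1 in KO. Both KO arrays lay below both WT arrays, a log2 fold change of -0.50 (SE 0.16, limma adjusted p = 0.0392). Its second probe set, at 1169.4 and 1198.7 in WT and 901.9 and 1004.6 in KO, was also lower on both KO arrays but did not pass (-0.31, adjusted p = 0.516).

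The call for Clcn7 held under 9 of 16 alternatives, and its log2 fold change ran from -0.64 to -0.36 over all 16. Adjusted p was 1.48e-05 after quantile normalization, 0.000106 after cyclic loess and 2.12e-05 without KO replicate 2 (-0.64). The call was lost without WT replicate 1 (-0.63, adjusted p = 0.9997), WT replicate 2 (-0.38, 0.9999) or KO replicate 1 (-0.36, 0.0784), with median centring (-0.48, 0.138), without a filter (-0.50, 0.0518), without moderation (-0.50, 0.873) and when its probe sets were averaged (-0.41, 0.156). The 9 further V-ATPase genes tested had 0 calls, 7 higher means in KO and a median of 0.11. Means were higher in KO for 42.3% of all genes and for 51.3% of the 501 brightest. Lipa and Tfeb were named after their values were seen. Lipa, the acid lipase that frees cholesterol from its esters, read 1085.3 and 976.4 in WT and 751.7 and 869.3 in KO, with both KO arrays below both WT arrays (-0.34, limma adjusted p = 0.366). It was called lower after quantile normalization (adjusted p = 0.0257), after cyclic loess (0.0191), with the replicate block (0.0158) and without KO replicate 2 (0.0348). Tfeb read 188 and 183 (-0.03).

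The markers of macrophages were present. All 8 had values and none was below the antisense median on every array, and their summed signal was 20530 to 21060 on the WT arrays and 19740 to 22520 on the KO arrays. Of these, 1 fell, the apoptotic cell receptor gene Mertk (230 to 143, log2 fold change -0.63), and the median over the 8 was -0.09. Adgre1, which encodes F4/80 (-0.32, adjusted p = 0.462), and Csf1r, the receptor for M-CSF (-0.16), had both KO arrays below both WT arrays without passing. Fcgr1 (-0.16), Itgam (-0.03), Cd68 (0.04), Lyz2 (0.05) and Cd14 (0.19) overlapped between genotypes, and Lyz2, Cd68 and Cd14 made up most of the sum. Neutrophil markers (3 of 7 tested, 4 of 7 below the antisense median on all arrays) summed to 1182 to 1226 in WT and 981 to 998 in KO, with 1 fallen, S100a8 (-0.58). S100a8, with means of 529.5 in WT and 350.5 in KO, was the largest part of that sum. Elane, Mpo and Camp also had both KO arrays below both WT arrays, Ly6g had both above, and Ltf and S100a9 overlapped. Fibroblast and mesothelial markers (4 of 6 tested) summed to 1628 to 1632 in WT and 2092 to 2424 in KO, with 1 risen, Dcn (0.75). The median over the 4 tested was 0.32. Col1a2 (0.37) and Col3a1 (0.27), neither of which passed, and the untested Upk3b also had both KO arrays above both WT arrays. Col1a1 and Msln overlapped. B cell markers (4 of 5 with values) summed to 892 to 941 in WT and 876 to 893 in KO, T and NK cell markers (3 of 5) to 235 to 241 and 236 to 268, mast cell and eosinophil markers (4 of 5) to 301 to 304 and 290 to 326, and dendritic cell markers (4 of 5) to 430.5 to 476 and 401 to 446, all with 0 calls. Of the lists with values, 2 T and NK cell, 3 mast cell and eosinophil, 2 dendritic cell and 1 fibroblast or mesothelial marker lay below the antisense median on all 4 arrays. The part of these cells in the fall of Gla or Clcn7 was not tested.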

How the data were processed

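The authors deposited 1 linear intensity per probe set for each array; the sources used here give no method of summarising probes, removing background or scaling. Set aside were 1780 blank rows of 12488 and 59 controls. Of the remaining 10649 probe sets, the platform annotation assigned 1 gene to 9389, several to 341 and none to 919; 9377 matched a GRCm38.p6 gene identifier. The log2 of each deposited signal plus 16 was analysed without rescaling, keeping the 6389 probe sets whose mean exceeded the 40th percentile, at a signal near 111. The test was limma 3.58.1 (R 4.3.3), two-sided, KO against WT, with lmFit and a trended eBayes and Benjamini-Hochberg adjustment over all 6389. Its prior degrees of freedom came out infinite, so the spread was taken from the trend. The brightest kept probe set stood for a gene. Signals of different probe sets were ranked by brightness and summed for the marker lists, and are not otherwise compared as levels of RNA. The code was tested on simulated data. The members, the lists (from general knowledge), the naming rule (genes past the threshold, the smallest p in each class, the brightest and dimmest member) and the tests were chosen with earlier results of these data known. The 16 alternatives were 3 normalizations, 2 filters, 2 pseudocounts, 3 variance settings, a replicate block, averaged probe sets and each array left out. An adjusted p of 0.1 was also tried and is not among the 16. Promoter sequences are from RefSeq. Plots used matplotlib 3.10.9 (Python 3.11.15).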

Additional observations from a re-analysis of the deposited data

How the results depend on the processing

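In the fit as reported a lysosomal gene needed a difference of 0.35 to 0.50 on the log2 scale to be called, while after quantile normalization Atp6v1a was called at 0.22. The calls for Gla and Clcn7 were lost when either WT array or KO replicate 1 was left out. In those fits the spread came from the other genotype's pair alone. Leaving out 1 array could not change the signs of Gla and Clcn7, since their arrays did not overlap between genotypes. The count of called lysosomal genes, and equally of called probe sets, was 1 as reported, 6 after quantile normalization, 3 after cyclic loess, 0 with median centring, 0 without a filter and 0 without moderation, and 0 to 2 when an array was left out. For hydrolases and luminal proteins these counts were 5, 3, 0, 0 and 0, and 0 to 2. Membrane proteins had 0 calls under every alternative, and V-ATPase genes 1 after quantile normalization and 0 otherwise. Other lysosomal genes had 3 calls after quantile normalization, 2 after cyclic loess, 0 with median centring, no filter, no moderation or the mean of probe sets, and 0 to 2 with an array left out. All probe sets called were 227 (28.6% higher in KO), 419 after quantile normalization (40.6% higher), 397 after cyclic loess, 0 without moderation (388 at an unadjusted p under 0.05 in limma) and 54 to 327 with an array left out. Median centring called 201 of 6389 probe sets, and the fit without a filter called 331 of 10649. The cause of these moves in the counts was not tested.

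The class medians moved by less than the spread between arrays except when a KO array was left out. Over the arrays left out in turn, the median ran from -0.078 to 0.107 for hydrolases and luminal proteins, from -0.046 to 0.062 for membrane proteins and from -0.050 to 0.148 for V-ATPase genes. No lysosomal gene called in any setting changed sign, but many of the settings could not have changed it. The filters, variance settings and replicate block leave the difference between genotypes unchanged. The arrays of the called genes did not overlap between genotypes, so leaving out an array could not turn their sign.

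With the replicate number as a block, 2 lysosomal genes were called (Gla and Acp5), 2 hydrolases, 2 other lysosomal genes and 480 probe sets in all. The replicate differences of WT and KO correlated at 0.416 across 6389 tested probe sets, which are not independent, and all 9 hybridisation controls were higher on replicate 2 in both genotypes. The labels do not say what a number marks, and with 2 pairs these values do not settle whether same-numbered arrays share a batch.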
